A study of Homo sapiens with 6 samples.

Results

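The genes described here are 9 intermediate filament genes, chosen by name out of 60675 rows of a gene count table: the simple-epithelium keratins KRT7, KRT8, KRT18 and KRT19, the mesenchymal filament gene VIM, and the neural or muscle filament genes NES, SYNM, NEFL and NEFM. They were measured by sequencing of polyA RNA from the human cell line SUM159, grown from a triple-negative breast cancer, in 3 libraries labelled DAPK3 KO (from the knockout line numbered 3) and 3 labelled control (genotype DAPK3 WT), set up to find expression differences after loss of the kinase DAPK3. Both groups shared one medium, Ham's F-12 with serum (5%), hydrocortisone (1 μg/mL), HEPES (10 mM) and insulin (5 μg/mL). The knockout comes from a single line, and the labels do not say whether the libraries of a group are separate cultures. So p-values here reflect only the spread among the libraries used in each test, possibly technical.

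Intermediate filaments are the rope-like part of the cytoskeleton that resists stretching. Keratins are obligate heteropolymers: a filament needs a type I chain (KRT18 or KRT19) and a type II chain (KRT7 or KRT8), and KRT8 with KRT18 is the founding pair of simple and glandular epithelium, luminal breast cells included. Vimentin, the product of VIM, assembles by itself and is the filament of fibroblasts and other mesenchymal cells, and many carcinoma cells that have lost epithelial traits carry it beside keratins. Nestin (NES) and synemin (SYNM) join filaments built by other chains, and the light and medium neurofilament chains (NEFL, NEFM) belong to axons.

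The libraries held from 16312184 to 22970823 expected counts, and no pair agreed within sampling noise (chi-square per degree of freedom of at least 12.9). RNA of DAPK3 itself went against the label in both R2 libraries. In order of replicate number, it stood at 13.1, 27.2 and 11.2 CPM (counts scaled to library size and TMM factor) in KO R1 to R3, and at 26.2, 10.5 and 26.1 CPM in control R1 to R3. Every result is therefore given with all 6 libraries by label and without both R2 libraries. In the second comparison label and DAPK3 RNA coincide because of which libraries were left out. That choice was made with DAPK3 RNA in these data known. Each R2 library also lay opposite the rest of its group on the first principal component of all genes tested. The p-values of the second comparison therefore leave out the spread that the R2 libraries add, and do not measure the spread among all libraries of a label. Markers of the labelled cell type were checked. PGR was at 0 in all libraries, ESR1 at 0.478 CPM or less, and the epithelial surface genes EPCAM and CDH1 at 0.0503 CPM or less. The receptor gene ERBB2 was present, at 52.2 to 97.8 CPM. The growth factor receptor gene EGFR lay between 302 and 518 CPM and N-cadherin (CDH2) between 95.8 and 215 CPM. Basal keratin genes were uneven. In KO R2, control R1 and control R3, KRT5 lay at 2.57 to 6.62 CPM, KRT14 at 0.453 to 0.618 CPM and KRT17 at 1.12 to 4.02 CPM. In KO R1, KO R3 and control R2 they lay at 48.4 to 220, 5.90 to 11.2 and 29.1 to 60.2 CPM. Of 12 markers of blood, endothelial, stromal, liver and fat cells, summed levels were 36.9 to 65.7 CPM in KO and 57.1 to 60.4 CPM in control, led by PDGFRA.

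Of the 9 genes, 5 were expressed well enough to be tested: VIM, KRT7, KRT18, KRT8 and SYNM. Levels are compared between genes only per kilobase of each gene's principal GENCODE transcript (RPKM). On that scale the order VIM, KRT7, KRT18, KRT8, SYNM was the same in all 6 libraries. VIM lay at 763, 1475 and 968 RPKM in KO R1 to R3 and at 1919, 1016 and 1469 RPKM in control R1 to R3. KRT7 followed at 580 to 843 RPKM in KO and 538 to 743 RPKM in control, then KRT18 at 211 to 288 RPKM in KO and 177 to 269 RPKM in control. KRT8, the type II partner of KRT18, was lower than KRT18 in every library, at 47.5 to 104 RPKM in KO and 73.6 to 126 RPKM in control. Among 68 cytoplasmic filament genes these ranked 1, 2, 4 and 6 by mean level, with the type II keratin KRT75 in place 3 and KRT80 in place 5, while SYNM ranked 15. With merged exons in place of the principal transcript as length, KRT8 ranked 7 and the places of VIM, KRT7 and KRT18 did not move.

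**Figure D1:**
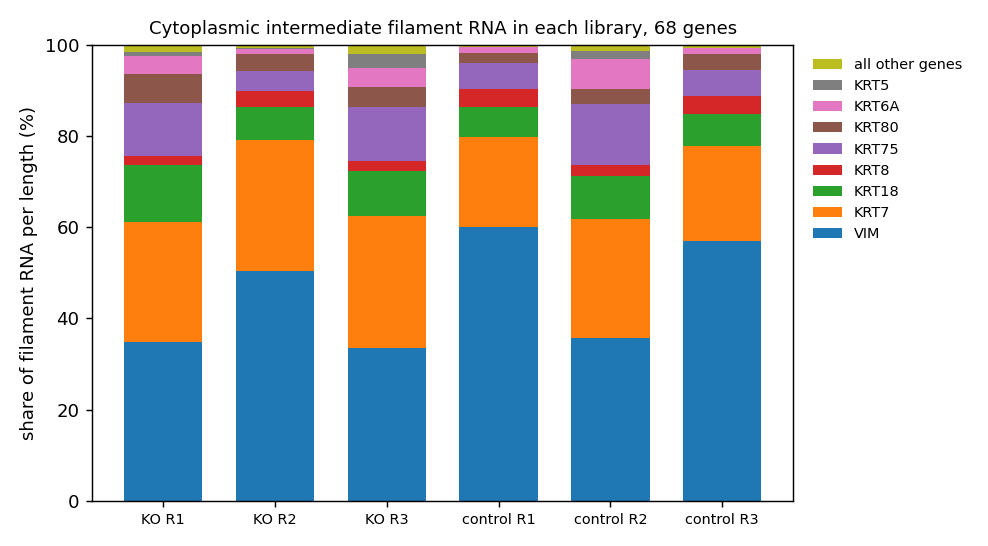
Share of each gene in the summed level per kilobase (RPKM) of 68 cytoplasmic intermediate filament genes, in percent, for each library (KO left, control right). VIM and KRT7 make up most of every bar, and the VIM part is 50.3% in KO R2, 59.98% in control R1 and 57.0% in control R3, against 33.5% to 35.6% in the remaining bars.

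The other 4 genes were silent or nearly so. KRT19, a type I keratin of simple epithelium, had 1, 0 and 0 counts in KO and 1, 0 and 0 in control. NES had 1, 1 and 0 counts in KO and 3, 0 and 0 in control. NEFL and NEFM had 0 counts in every library. A count of 0 allows up to 3 counts, or 0.130 to 0.186 CPM depending on the library, which bounds NEFL and NEFM in every library. KRT19 and NES have that bound only where their count was 0. None of the 4 passed the filter on low counts, so no difference between the groups was tested. KRT18 was thus the only type I chain of the set present in quantity, beside 2 type II chains. Of 122 pseudogenes of KRT7, KRT8, KRT18 and KRT19 in the table, 79 were at 0 in every library.

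KRT7 (ENSG00000135480, GRCh38 chromosome 12, 52232520 to 52252186, plus strand) was the most abundant keratin, and its label groups overlapped. Its level was 1017, 1480 and 1465 CPM in KO R1 to R3, against 1112, 1304 and 943 CPM in control R1 to R3. KO R1 was below 2 of the control libraries, and KO R2 and R3 were above all 3. The log2 fold change was 0.24 (± 0.19 SE, adjusted p = 0.77 by edgeR) by label and 0.26 (± 0.19 SE, adjusted p = 0.35 by edgeR) without both R2 libraries. That second value rested on single libraries. It was −0.04 when KO R3 was also left out, and 0.52 (edgeR adjusted p = 0.041) when KO R1 was also left out. KO R2 and KO R3 had nearly equal KRT7, with DAPK3 RNA at 27.2 CPM in KO R2 and 11.2 CPM in KO R3. KO R1, with DAPK3 RNA at 13.1 CPM, had less KRT7 than KO R3. A relation of KRT7 to DAPK3 RNA was not tested. The antisense gene KRT7-AS lies inside it, with 205, 297 and 305 counts in KO R1 to R3 and 413, 350 and 421 in control R1 to R3. These counts are not scaled to library size, which was smallest in KO R2, and no difference between the groups is read from them. The exonic bases that KRT7 and KRT7-AS share were not counted, and with no stated strand setting reads of any such bases cannot be told apart.

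KRT8 and KRT18 are neighbours on chromosome 12 and are read in opposite directions. The spans of KRT8 (ENSG00000170421, 52897187 to 52949954, minus strand) and KRT18 (ENSG00000111057, 52948871 to 52952901, plus strand) overlap by 1084 bases in GENCODE release 29, introns included. The exonic bases that KRT8 and KRT18 share were not counted. With no stated strand setting, reads of any such bases cannot be told apart. KRT18 is the exception among type I keratin genes, most of which cluster on chromosome 17, where KRT19 lies. Their products form the same filaments.

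KRT8 stood at 89.4, 196 and 115 CPM in KO R1 to R3, against 238, 139 and 190 CPM in control R1 to R3. By label the ranges overlapped, since KO R2 was above 2 control libraries and control R2 below KO R2. The log2 fold change by label was −0.50 (± 0.33 SE, adjusted p = 0.73 by edgeR). Without both R2 libraries KRT8 fell by 1.08 on the log2 scale (± 0.17 SE, adjusted p = 0.005 by edgeR), a 2.11-fold lower level in KO R1 and R3 than in control R1 and R3.

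KRT18 stood at 423, 329 and 449 CPM in KO R1 to R3, against 323, 421 and 276 CPM in control R1 to R3. KO R2 was lower than the other KO libraries and control R2 higher than the other controls, so the label groups overlapped here too. Its log2 fold change was 0.24 (± 0.20 SE, adjusted p = 0.77 by edgeR) by label. Without both R2 libraries it rose by 0.53 (± 0.13 SE, adjusted p = 0.021 by edgeR), or 1.44-fold. That call was lost when KO R3 (edgeR adjusted p = 0.052) or control R3 (edgeR adjusted p = 0.12) was also left out, with 0.48 and 0.42 as log2 fold changes.

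**Figure D2:**
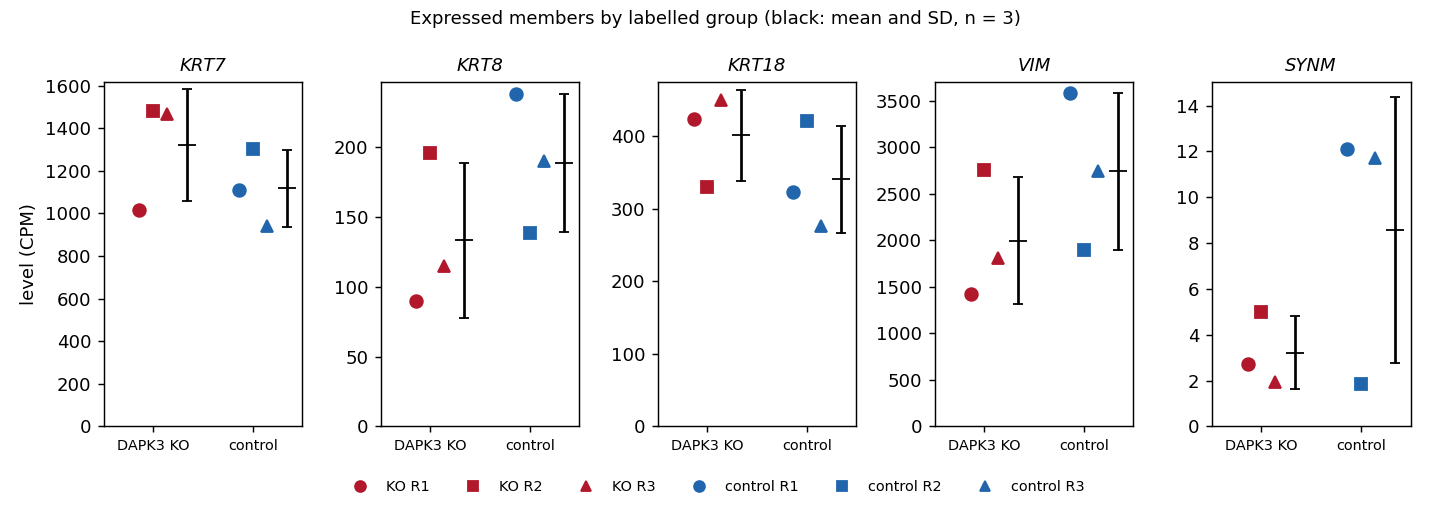
Level in CPM (linear axis from 0) of the 5 expressed genes in each library, KO left and control right, with mean and SD (n = 3) in black. In each panel the label groups overlap, and for KRT8, KRT18, VIM and SYNM the square of control R2 lies nearer to KO R1 and R3 than to control R1 and R3.

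Part of the KRT8 and KRT18 sequence also occurs in other genes, among them processed copies. Of the 50-base windows along the principal transcript, 680 of 1833 (37.1%) of KRT8 and 481 of 1513 (31.8%) of KRT18 also occur in a transcript of another gene (37 genes for KRT8 and 43 for KRT18), against 17 of 1705 for KRT7, 0 of 1819 for VIM and 0 of 7345 for SYNM. The authors' counting divides such reads by estimate, so the KRT8 and KRT18 values carry an uncertainty that was not measured. The share of windows does not give its size. The only copy that passed the filter on low counts was KRT8P12, a transcribed processed pseudogene on chromosome 3 (160565447 to 160569248, plus strand).

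KRT8P12 did not follow KRT8. It stood at 8.66, 6.18 and 9.46 CPM in KO R1 to R3, against 6.74, 8.94 and 4.68 CPM in control R1 to R3, high in the libraries where KRT8 was low. Its log2 fold change without both R2 libraries was 0.65 (± 0.25 SE, adjusted p = 0.097 by edgeR), so it was not called. KRT8P33, another copy at low level, stood at 0.293 to 0.860 CPM in any library and was not tested. All 50 KRT8 pseudogenes together held 10.4%, 3.77% and 8.71% of the reads given to KRT8 and its copies in KO R1 to R3, against 3.15%, 7.32% and 3.03% in control R1 to R3. The 67 KRT18 pseudogenes held 0.272% to 0.481% of the reads of KRT18 and its copies in any library. Whether reads of KRT8 were assigned to its copies, or the reverse, was not tested.

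VIM (ENSG00000026025, chromosome 10, 17228259 to 17237593, plus strand), encoding vimentin, was lower in KO R1 and R3 than in control R1 and R3. It stood at 1425, 2755 and 1807 CPM in KO R1 to R3, against 3584, 1898 and 2743 CPM in control R1 to R3. KO R2 was at the level of control R3, and control R2 at that of KO R3, so the label groups overlapped. The log2 fold change was −0.46 (± 0.31 SE, adjusted p = 0.73 by edgeR) by label. Without both R2 libraries VIM fell by 0.98 (± 0.18 SE, adjusted p = 0.0088 by edgeR), or 1.97-fold. The antisense gene VIM-AS1 overlaps the start of VIM and held at most 64 counts in a library, where VIM had at least 26806.

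SYNM (ENSG00000182253, chromosome 15, 99098217 to 99135593, plus strand) encodes synemin, a large filament protein that links desmin or vimentin to adhesion sites in muscle and other cells. It was the least abundant of the tested genes and the one that differed most. It stood at 2.71, 5.01 and 1.95 CPM in KO R1 to R3, against 12.1, 1.86 and 11.7 CPM in control R1 to R3, resting on 39 to 248 counts. SYNM in KO R2 was above KO R1 and R3 but below both control R1 and R3, whereas VIM and KRT8 in KO R2 were below control R1 and level with control R3. The log2 fold change was −1.41 (± 0.72 SE, adjusted p = 0.67 by edgeR) by label. SYNM, without both R2 libraries, fell by 2.37 (± 0.26 SE, adjusted p = 0.0012 by edgeR), or 5.19-fold.

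**Figure D3:**
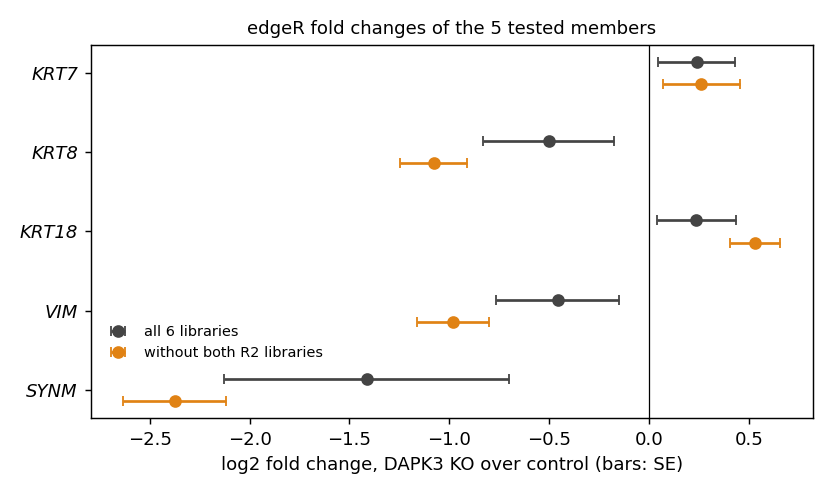
edgeR log2 fold changes (KO over control) of the 5 tested genes with standard errors, from all 6 libraries (grey) and without both R2 libraries (orange). Each gene has the same sign in both, and KRT8, VIM and SYNM lie farther below 0 without both R2 libraries, with SYNM at −2.37.

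VIM, SYNM and KRT8 had their lowest 3 levels in the same libraries (KO R1, KO R3 and control R2), and the upstream sequences RefSeq gives for VIM and SYNM are shown for what they hold (250 bases before the RefSeq start, build GRCh38.p14, 5′ to 3′ on the gene's strand). Of the 9 genes, 4 had an entry there: VIM, SYNM, KRT8 and NES. In all, 4 motifs were searched on both strands, and matches on either strand are in capitals: the AP-1 motif TGANTCA, the E-box CAGGTG that ZEB and SNAI repressors bind, the TATA box TATAAA and the GC box GGGCGG. VIM has a GC box 46 bases before the start, and SYNM has an E-box 159 bases before it and GC boxes at 191, 60, 56 and 43, the middle pair of which overlap. Over 35116 RefSeq promoters the same 250-base window holds the GC box in 42.6%, the E-box in 17.5%, the TATA box in 10.7% and the AP-1 motif in 6.57%. The SYNM sequence is 78.8% G and C with 34 CpG pairs, and that of VIM is 46.0% with 8. The VIM start lies 1037 bases upstream of that of its principal transcript VIM-201, and the SYNM start 45 bases from that of SYNM-202. The KRT8 entry belongs to a start 19851 bases from that of its principal transcript and held none of the 4 motifs, and is not shown. A match describes letters only, and gene counts do not show which start was used.
VIM chr10:17227991-17228240: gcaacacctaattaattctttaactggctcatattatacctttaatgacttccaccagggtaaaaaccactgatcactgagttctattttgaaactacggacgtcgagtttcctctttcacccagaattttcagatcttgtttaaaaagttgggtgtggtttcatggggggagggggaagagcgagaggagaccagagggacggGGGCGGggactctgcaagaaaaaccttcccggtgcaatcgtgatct
SYNM chr15:99104830-99105079: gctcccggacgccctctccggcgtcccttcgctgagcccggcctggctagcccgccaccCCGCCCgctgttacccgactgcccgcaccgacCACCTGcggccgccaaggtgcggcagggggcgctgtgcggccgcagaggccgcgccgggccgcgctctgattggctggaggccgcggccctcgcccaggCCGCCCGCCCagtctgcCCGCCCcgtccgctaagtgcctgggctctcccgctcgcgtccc

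Across the comparison as a whole, edgeR's quasi-likelihood test called 0 of 14613 genes (0%) by label, with 1119 at an unadjusted p under 0.05. limma-voom also called 0, and DESeq2 called 124, with no member among them. None of the 5 tested members reached an unadjusted p of 0.05 by label, SYNM coming nearest at 0.091. Without both R2 libraries 4056 of 14846 genes (27.3%) were called, 12.2% higher and 15.2% lower in KO. Of the 9 members, 5 were tested, 3 were called lower (SYNM, KRT8 and VIM), 1 was called higher (KRT18) and KRT7 was not called. The median log2 fold change of the tested members was −0.98, beside −0.02 over all genes tested. With 5 genes these counts describe the members and are no test of the group. Leaving out control R1 as well gave 2543 called genes.

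The members were also set beside DAPK3 RNA, as a description with no test. KRT8, VIM and SYNM were lower in KO R1, KO R3 and control R2 than in KO R2, control R1 and control R3, without overlap, and KRT18 was higher in them without overlap. DAPK3 stood at 10.5 to 13.1 CPM in the first 3 and at 26.1 to 27.2 CPM in the others. KRT7 overlapped. The libraries fall into 2 clusters in this way over the whole transcriptome too, with 74.7% of the variance on the first principal component, so no correlation with DAPK3 is given. The share of all genes that divide without overlap in this way was not counted, and nothing particular to the members is read from it. With the log2 level of DAPK3 as a covariate beside the label, 0 of 14613 genes (0%) were called. No member was called either, and nothing particular to the members is read from that. In that fit the log2 fold changes of KO over control were −0.37 for KRT8 (± 0.16 SE, adjusted p = 0.31 by edgeR), −0.30 for VIM (± 0.16 SE, adjusted p = 0.38 by edgeR), −0.73 for SYNM (± 0.31 SE, adjusted p = 0.28 by edgeR), 0.14 for KRT18 (± 0.10 SE, adjusted p = 0.50 by edgeR) and 0.23 for KRT7 (± 0.18 SE, adjusted p = 0.56 by edgeR).

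**Figure D4:**
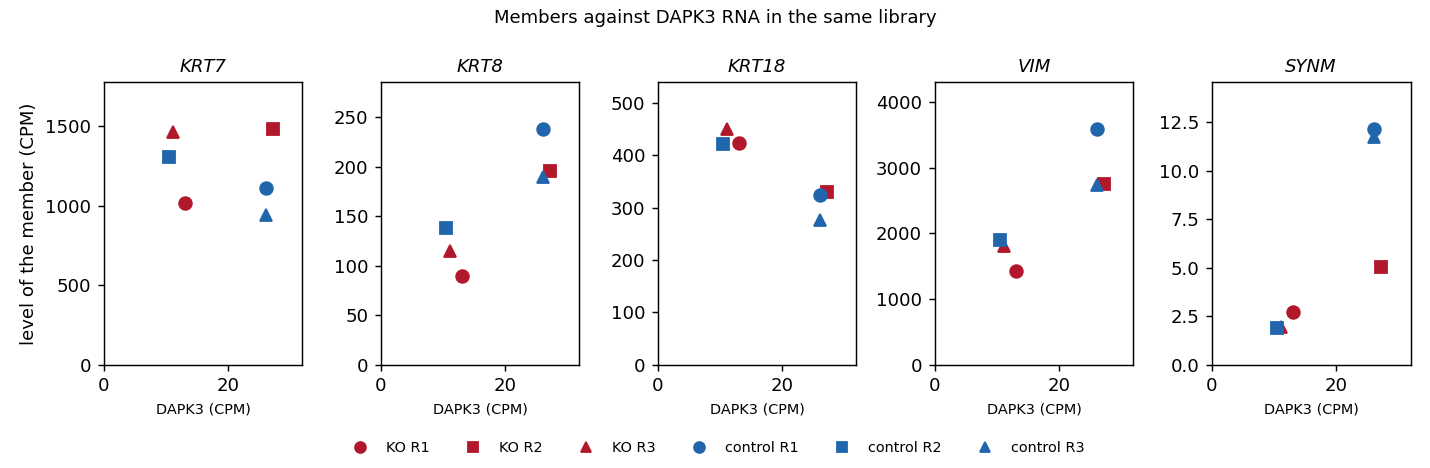
Level of each expressed gene (CPM) against that of DAPK3 (CPM) in the same library, on linear axes from 0, with KO in red and control in blue. KRT8, VIM and SYNM lie higher and KRT18 lower in the 3 libraries with DAPK3 above 26 CPM, which are KO R2, control R1 and control R3, and KRT7 does not divide in this way.

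The balance of keratin to vimentin was taken within each library, where scaling cancels. The ratio of KRT8 plus KRT18 counts to VIM counts was 0.36, 0.191 and 0.312 in KO R1 to R3, against 0.157, 0.295 and 0.170 in control R1 to R3. KO R1 and R3 were above all control libraries, and KO R2 was above control R1 and R3 but below control R2. On the log2 scale the balance averaged −1.85 ± 0.48 in KO and −2.33 ± 0.50 in control (SD, n = 3 each). The difference of 0.48 was about the size of either SD (exact permutation test, two-sided, p = 0.20, where 3 against 3 cannot go below 0.10). It was 1.04 without both R2 libraries, where 2 against 2 cannot go below 0.333. KRT7 to VIM, added after the other ratios were seen, was 0.714, 0.537 and 0.811 in KO R1 to R3, against 0.310, 0.687 and 0.344 in control R1 to R3. Here too KO R2 was above control R1 and R3 but below control R2. The log2 difference was 0.70 by label (exact permutation test, two-sided, p = 0.20) and 1.22 without both R2 libraries.

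The ratio between the partner keratins KRT18 and KRT8 was taken in the same way. KRT18 had 4.73, 1.68 and 3.92 counts for each KRT8 count in KO R1 to R3, against 1.36, 3.04 and 1.46 in control R1 to R3. Control R2 lay between the KO libraries, and KO R2 near control R1 and R3. The log2 ratio averaged 1.66 ± 0.79 in KO and 0.86 ± 0.64 in control (SD, n = 3 each), a difference of 0.79 (exact permutation test, two-sided, p = 0.20) that was 1.61 without both R2 libraries. With the pseudogenes of each gene added, the difference was 0.74. Type I over type II, that is KRT18 and KRT19 over KRT7 and KRT8, averaged −1.85 ± 0.48 in KO and −1.96 ± 0.16 in control on the log2 scale (SD, n = 3 each), a difference of 0.11 (exact permutation test, two-sided, p = 0.80). KO R2 had the lowest of these ratios, 0.197, and KO R1 the highest, 0.383, so the KO libraries enclosed all control libraries.

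**Figure D5:**
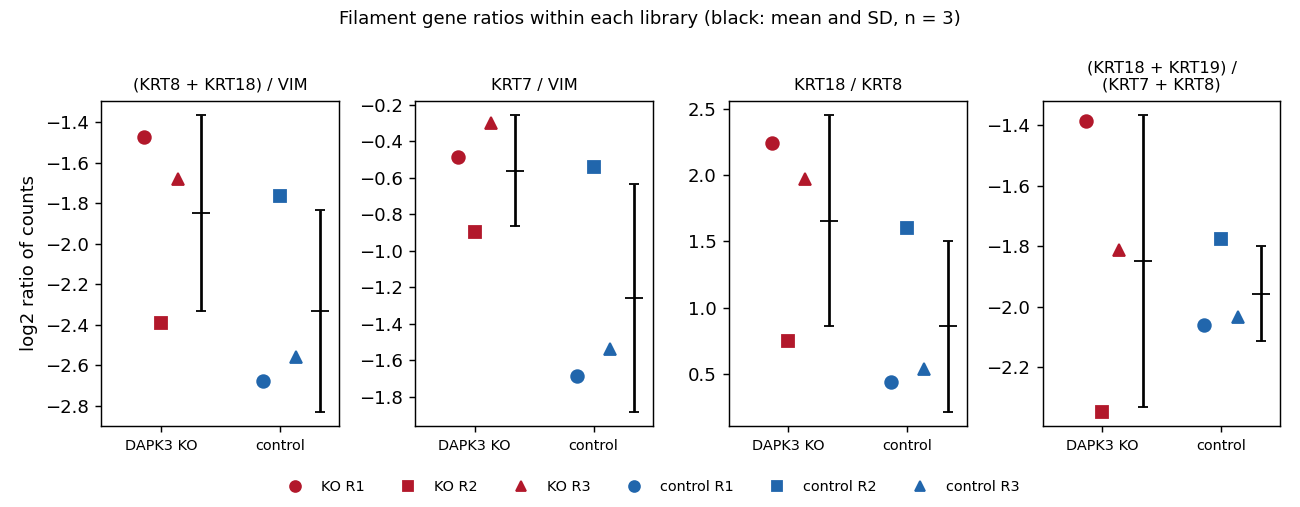
Log2 ratios of counts within each library, KO left and control right, with mean and SD (n = 3) in black. KRT18 over KRT8 runs from 0.75 to 2.24 in KO and from 0.44 to 1.60 in control, and type I over type II keratins runs from −2.35 to −1.39 in KO, enclosing the control libraries.

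VIM made up 34.8%, 50.3% and 33.5% of cytoplasmic filament RNA per length in KO R1 to R3, against 59.98%, 35.6% and 57.0% in control R1 to R3. Keratins of all kinds made up 65.2%, 49.7% and 66.5% in KO, against 39.9%, 64.3% and 42.9% in control. The VIM share averaged 39.5% ± 9.38 in KO and 50.9% ± 13.3 in control (SD, n = 3 each), and the groups overlapped. The members together held 75.7%, 89.8% and 74.4% in KO, against 90.3%, 73.7% and 88.7% in control, and much of the rest was KRT75, a type II keratin of the hair follicle companion layer, and KRT6A, a keratin of wounded and stressed epidermis. Those 2 genes held 15.4%, 5.76% and 16.2% in KO, against 6.97%, 19.8% and 7.15% in control.

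Most other keratin genes that were called without both R2 libraries were higher in KO. Of 51 further keratin genes, 21 were at 0 in every library and 12 were tested, of which 7 were called higher and 2 lower. Over all genes tested in that comparison, 12.2% were called higher and 15.2% lower. The stress keratin gene KRT17 stood at 29.1, 4.02 and 60.2 CPM in KO R1 to R3, against 1.12, 32.8 and 1.86 CPM in control R1 to R3. It rose, without both R2 libraries, by 4.89 on the log2 scale (± 0.44 SE, adjusted p = 6e-04 by edgeR). In the same comparison KRT14, the basal type I keratin, rose by 4.02 (± 0.45 SE, adjusted p = 0.0014 by edgeR) and KRT16, a partner of KRT6A, by 4.004 (± 0.40 SE, adjusted p = 0.00094 by edgeR). All 3 crossed the label in both R2 libraries. KRT80, a widely expressed type II keratin named after its values were seen, went with the label. It stood at 537, 403 and 486 CPM in KO R1 to R3, against 278, 367 and 345 CPM in control R1 to R3, so the groups did not overlap. Its log2 fold change was 0.53 (± 0.16 SE, adjusted p = 0.63 by edgeR) by label and 0.70 (± 0.15 SE, adjusted p = 0.014 by edgeR) without both R2 libraries. By label, 0% of genes tested were called. The share of all genes whose label groups do not overlap was not counted, so nothing particular to KRT80 is read from its division.

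The remaining filament genes were the lamins of the nuclear envelope and chains of other tissues. Of 11 genes, 4 were tested and 2 called lower without both R2 libraries, where 15.2% of all genes tested were called lower. LMNB1, encoding lamin B1, stood at 34.0, 43.4 and 50.3 CPM in KO R1 to R3, against 107, 77.6 and 91.2 CPM in control R1 to R3, without overlap of the labels (share of all genes not counted). Its log2 fold change was −1.11 (± 0.19 SE, adjusted p = 0.63 by edgeR) by label and −1.25 (± 0.20 SE, adjusted p = 0.0055 by edgeR) without both R2 libraries. In that comparison LMNB2, encoding lamin B2, fell by 0.60 (± 0.14 SE, adjusted p = 0.021 by edgeR), a call lost when KO R1 or control R1 was also left out (edgeR adjusted p = 0.078 and 0.055). Desmin (DES), GFAP and peripherin (PRPH), the type III relatives of vimentin, stayed at or under 0.302 CPM.

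Of 9 genes that tie filaments to junctions or to other cytoskeleton, 8 were tested without both R2 libraries, with 4 called higher and 1 lower. The shares over all genes tested were 12.2% higher and 15.2% lower. DSP, encoding the desmosomal keratin anchor desmoplakin, stood at 185, 16.8 and 186 CPM in KO R1 to R3, against 16.8, 190 and 17.1 CPM in control R1 to R3. In that comparison it rose by 3.44 (± 0.12 SE, adjusted p = 3e-05 by edgeR), and EPPK1, encoding the keratin-binding protein epiplakin, by 3.71 (± 0.54 SE, adjusted p = 0.0037 by edgeR). DST, encoding the spectraplakin dystonin, stood at 185, 324 and 184 CPM in KO R1 to R3, against 339, 172 and 309 CPM in control R1 to R3, and fell by 0.83 (± 0.11 SE, adjusted p = 0.003 by edgeR). PLEC, encoding plectin, which binds vimentin and keratins, had −0.50 (± 0.16 SE, adjusted p = 0.053 by edgeR) and was not called. The median log2 fold change of the 8 was 0.65, beside −0.02 over all genes.

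Of 16 genes for filament kinases, binding proteins and turnover, all were tested, with 0 called higher and 4 lower without both R2 libraries. The share called over all genes tested was 27.3% (12.2% higher and 15.2% lower), so nothing particular to these genes is read from the count. CDK1, the mitotic kinase that phosphorylates vimentin and nestin, stood at 31.9, 55.7 and 49.6 CPM in KO R1 to R3, against 111, 62.4 and 101 CPM in control R1 to R3. In that comparison it fell by 1.38 (± 0.21 SE, adjusted p = 0.0044 by edgeR). YWHAZ, a 14-3-3 protein of the kind that binds phosphorylated KRT18 and vimentin, fell by 0.62 (± 0.11 SE, adjusted p = 0.0086 by edgeR). PRKCE, a protein kinase C that phosphorylates vimentin, fell by 1.46 (± 0.32 SE, adjusted p = 0.015 by edgeR), a call lost when control R1 was also left out (edgeR adjusted p = 0.07).

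Of 16 transcription factors and other regulators of epithelial and mesenchymal genes, 11 were tested, 2 called higher and 4 lower without both R2 libraries. For this list and the next 2, the shares over all genes tested were 12.2% higher and 15.2% lower. ZEB2, a repressor of epithelial genes, stood at 27.5, 58.1 and 23.4 CPM in KO R1 to R3, against 58.8, 22.1 and 45.2 CPM in control R1 to R3, and fell by 1.05 (± 0.17 SE, adjusted p = 0.0055 by edgeR). The epithelial factors KLF4 and KLF5 rose by 1.29 (± 0.14 SE, adjusted p = 0.0013 by edgeR) and 0.71 (± 0.12 SE, adjusted p = 0.0074 by edgeR). Other epithelial regulators of the list did not rise with them. ESRP1 had −1.62 (adjusted p = 0.082 by edgeR), ESRP2 −0.56 (adjusted p = 0.48 by edgeR) and GRHL1 0.39 (adjusted p = 0.70 by edgeR), none called. GRHL2, OVOL1, OVOL2, ELF3 and EHF lay at 0.239 CPM or less and were not tested. KLF5 went with the label, at 62.9, 69.2 and 61.8 CPM in KO R1 to R3, against 39.5, 39.2 and 35.9 CPM in control R1 to R3, without overlap (share of all genes not counted). KLF4 also divided by label without overlap, at 73.2 to 99.8 CPM in KO and 34.5 to 69.0 CPM in control. So did CDK1, ERBB2 and EGFR, and nothing particular to any of these genes is read from it. None of them was called by label (adjusted p = 0.635 by edgeR for each). Of 14 luminal identity genes, 7 were tested, with 0 called higher in that comparison and 1 (the receptor gene ERBB2) lower. ERBB2 fell by 0.86 (± 0.12 SE, adjusted p = 0.0029 by edgeR). Of 10 genes of basal and mesenchymal breast lines, all tested, 4 were called higher (KRT14 and KRT17 among them, which the other keratins also hold) and 4 lower. Among them FN1, encoding the matrix protein fibronectin, stood at 462, 3833 and 509 CPM in KO R1 to R3, against 3904, 421 and 4289 CPM in control R1 to R3, and fell by 3.09 (± 0.14 SE, adjusted p = 5.8e-05 by edgeR).

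Of 13 neural genes measured beside the neural filament chains, 4 were at 0 in every library, 6 were tested without both R2 libraries and 5 of these were called lower. Among all genes tested, 15.2% were called lower. MAP2, a dendritic microtubule protein, stood at 7.97, 137 and 14.8 CPM in KO R1 to R3, against 101, 8.65 and 81.1 CPM in control R1 to R3. The adhesion gene NCAM1 stood at 0, 18.7 and 0.0868 CPM in KO, against 17.8, 0.0956 and 19.4 CPM in control, and TUBB3, a neuronal tubulin, fell by 2.31 (± 0.15 SE, adjusted p = 2e-04 by edgeR). Summed over the 13 genes the level was 30.2, 186 and 31.2 CPM in KO, against 196, 34.2 and 173 CPM in control, and the neural regulators SOX2 and SOX10 were at 0 in all 6. The leukocyte gene PTPRC was called lower in that comparison too, at 0.106, 3.28 and 0 CPM in KO, against 2.98, 0.0478 and 2.92 CPM in control. The part of other cells in these levels was not tested, and in bulk RNA fewer cells of a type and less RNA per cell cannot be told apart.

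The genes whose profile over the 6 libraries came closest to a member's were found by the root mean square difference of centred log2 CPM among 9827 or 9828 candidates. For KRT18 the nearest was PPIE at 0.03, for KRT7 SNRPA at 0.04, and for KRT8 PTPN18 at 0.05. VPS26B was the nearest to VIM at 0.06 and was also among the nearest 3 to KRT8, at 0.07. The rest of the nearest 3 were DUSP12 and AKIP1 for KRT7, ANK3 for KRT8, MRPS10 and STX18 for KRT18, CEP55 and GNB4 for VIM, and IL1R1 and TUBB2A for SYNM. For SYNM, which rests on 39 to 248 counts in a library, the nearest was NPTX1 at 0.24. How much of that distance is counting error was not tested. NPTX1 stood at 9.83, 19.9 and 8.99 CPM in KO R1 to R3, against 58.4, 11.5 and 57.4 CPM in control R1 to R3. NPTX1 shared with SYNM a KO R2 level between the other KO libraries and control R1 and R3. For scale, the members' own root mean square deviation from their mean was 0.26 for KRT18, 0.25 for KRT7, 0.49 for KRT8, 0.45 for VIM and 1.10 for SYNM.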

How the data were processed

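The deposited table holds expected counts for each gene, not normalized, with RSEM in its column names. The submitters' processing notes list Bowtie2, RSEM, edgeR and the GRCh38 build, with versions, annotation and strand setting not given in the sources used here. In each library 9.42% to 10.6% of values were not whole. Counts were rounded, and 3 libraries per label were compared by quasi-likelihood F tests in edgeR (version 4.0.16 under R 4.3.3, TMM factors 0.991 to 1.015, filterByExpr), Benjamini-Hochberg over all genes tested, with a threshold of 0.05. CPM is the rounded count over the library total times its TMM factor, and SE is the fold change over the root of its F statistic. Both R2 libraries were left out in a second fit. Ratios were tested by exact permutation over libraries. Annotation and transcripts are GENCODE release 29, in which all 281 list genes were matched by identifier, and promoters are from RefSeq. The limit of 3 counts allowed by a count of 0 covers counting error only. Members, lists and tests were chosen with earlier results of these data known. Named genes are all members, up to 3 called genes per list by smallest adjusted p (where none was called, the 2 with the highest mean), DAPK3, the pseudogenes and overlapping genes with most counts, and the nearest profiles. KRT80, PLEC, KRT75, KRT6A and marker genes named as levels fall outside that rule and were named after their values were seen. Alternatives were other scalings, filters, DESeq2 1.42.0, limma-voom (limma 3.58.1), a threshold of 0.01, the replicate block, DAPK3 as a covariate and each library left out.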

Additional observations from a re-analysis of the deposited data

How the results depend on the processing

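The labelled comparison called 0 genes under all scalings, filters, limma-voom, the covariate fit and with any library left out. The exceptions were DESeq2, with 124, and leaving out both R2 libraries, with 4056 genes and 4 members. Without both R2 libraries the members' log2 fold changes were −1.08 for KRT8, 0.53 for KRT18, −0.98 for VIM and −2.37 for SYNM. Every alternative to that comparison also leaves out both R2 libraries, so the alternatives do not test that choice. In that comparison 1710 genes were called at an adjusted p under 0.01, and from 2543 (without control R1) to 3700 with 1 library left out, in fits where the lone library is assumed to vary like the others. KRT8, VIM and SYNM were called under all 13 alternatives, KRT18 under 10 and KRT7 under 1. With 1 library left out KRT7 ran from −0.037 to 0.52, negative without KO R3. With 1 library left out the type I to type II difference ran from −0.12 (without KO R1) to 0.36, the only ratio to change sign. With merged exons as length the VIM share averaged 29.4% in KO and 40.2% in control.

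No label says that replicate numbers pair the libraries. Deviations from the group means correlated at −0.66, −0.85 and −0.70 for numbers 1, 2 and 3. These values cannot decide whether numbers pair. Each R2 library lay on the opposite side of the first principal component from the rest of its group, which by itself makes same-numbered deviations opposite. With the replicate block the labelled comparison called 0 genes, and without both R2 libraries it called 2702, KRT18 being no longer called (0.53, adjusted p = 0.074). Over those 4 libraries same-numbered deviations correlated at −0.32, and a block on crossed numbers, chosen after seeing the data, called 6164. Members at 0 to 3 counts in each library could not be compared at this depth.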
